A study of Homo sapiens with 3 samples.

Results

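Collagens are triple-helical proteins of the extracellular matrix, and the enzymes described with them act on the chains during and after their synthesis. The group was chosen by gene name alone and holds the numbered collagen chains, the prolyl 3-hydroxylases, the alpha subunits of prolyl 4-hydroxylase, the lysyl hydroxylases (PLOD), the collagen chaperone SERPINH1 and the lysyl oxidases. It counted 60 of the 60506 genes listed on chromosomes, of which 44 were collagen chains. The series is RNA sequencing of HaCaT, an immortalized human keratinocyte line, and asks how expression depends on SRSF5, a serine and arginine rich splicing factor. Cells labelled wild type received a control siRNA, and cells labelled SRSF5 knockdown received siRNA No.1 or siRNA No.2 against SRSF5 (siRNA 1 and siRNA 2), each at 10 nM with a lipid reagent. Each transfection gave 1 library, 3 in all. The control is thus a single library, and the SRSF5 siRNA group (n = 2) holds 2 different siRNAs rather than repeats of one.

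A collagen chain is cotranslationally hydroxylated on proline and lysine in the endoplasmic reticulum, where 3 chains, folded from their C-terminal ends, are held as a helix with the help of SERPINH1. Prolyl 4-hydroxylation stabilizes the helix, prolyl 3-hydroxylation is a rarer mark that is frequent in basement membrane collagen, and lysyl hydroxylation and oxidation prepare the crosslinks of the finished matrix. Keratinocytes are known for the collagens of the epidermal basement membrane (types IV, VII, XVII and XVIII), whereas the fibrillar types I, III and V are products mainly of dermal fibroblasts.

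The files held 4458622346, 4228110936 and 4126967673 units in the control, siRNA 1 and siRNA 2 libraries, 100 units being taken as 1 read. Mitochondrial transcripts took 13.7%, 14.8% and 10.0% of them. The targeted gene SRSF5 had a summed FPKM (fragments per kilobase of transcript, scaled to the size of the library) of 94.1 in the control against 44.3 (siRNA 1) and 18.7 (siRNA 2), which is 47.1% and 19.8% of the control. All 10 keratinocyte markers were expressed, and their summed level was 4472, 5527 and 9355 FPKM in the same order, while 9 fibroblast markers together reached 0.557, 0.927 and 2.34 FPKM, with TCF21 at 0 throughout and 0 of 9 passing the filter. Of 5 endothelial, 5 melanocyte and 5 immune markers, the filter passed CDH5, MITF, CD68 and CD74, of which CDH5 was at least 1.5-fold lower with both siRNAs. Over all 13923 genes tested, the median log2 ratio to the control was -0.02 with siRNA 1 and 0.05 with siRNA 2.

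The level of a gene was the sum of FPKM over its listed transcripts. A read appears to be divided equally among the listed transcripts it overlaps, so the sum depends on the number and length of these transcripts. Genes are compared with each other only by the FPKM of the transcript that holds most reads (the main transcript). It carries only a share of the reads of its gene, so the order of genes is approximate. Ratios are log2 of the summed FPKM plus 1 against the control, which understates differences of low genes. Counting errors were taken on log2 of the reads of the main transcript, with nothing added. For low genes they are thus not on the scale of the ratios. Where 3 values are given without names, they stand in the order control, siRNA 1, siRNA 2. In bulk RNA, fewer cells of a type and less RNA per cell cannot be told apart.

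Of the 60 genes, 29 were expressed, with a summed FPKM of at least 1 in at least 1 library. These were 17 of 44 collagen chains, 3 of 4 prolyl 3-hydroxylases, 2 of 3 prolyl 4-hydroxylase subunits, all 3 lysyl hydroxylases, 3 of 5 lysyl oxidases and SERPINH1. The other 31 stayed below 1 in every library, the highest being COL3A1 at 0.689 with siRNA 2, and COL9A1, COL19A1 and COL23A1 were listed at 0 in all 3 libraries. A mean of at least 1 over the libraries was required for testing, and 27 genes passed. COL13A1 (0.806, 0.582 and 1.28 FPKM) and COL6A1 (0.386, 0.540 and 1.61 FPKM) were expressed but not tested. COL5A1 and COL5A3 passed through the siRNA libraries only, so their differences from the control are in part set by the filter.

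By main transcript, SERPINH1 was the most abundant member in the control at 26.2 FPKM, followed by COL17A1 at 25.1, COL4A2 at 19.4 and PLOD1 at 16.8. After a gap came P4HA1 at 6.65, P3H2 at 5.80, LOXL2 at 5.08, PLOD3 at 4.85 and COL4A1 at 4.39. By this measure COL17A1 was above SERPINH1 in both siRNA libraries, and P3H2 was near PLOD1 in both, at 19.4 and 20.9 FPKM against 20.4 and 16.5. The order depends on the transcript taken. The shorter SERPINH1-215, with nearly as many reads, had 38.4, 39.8 and 32.8 FPKM. That is above COL17A1-208 (25.1, 29.6 and 39.0) in the control and with siRNA 1, and below it with siRNA 2.

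**Figure D1:**
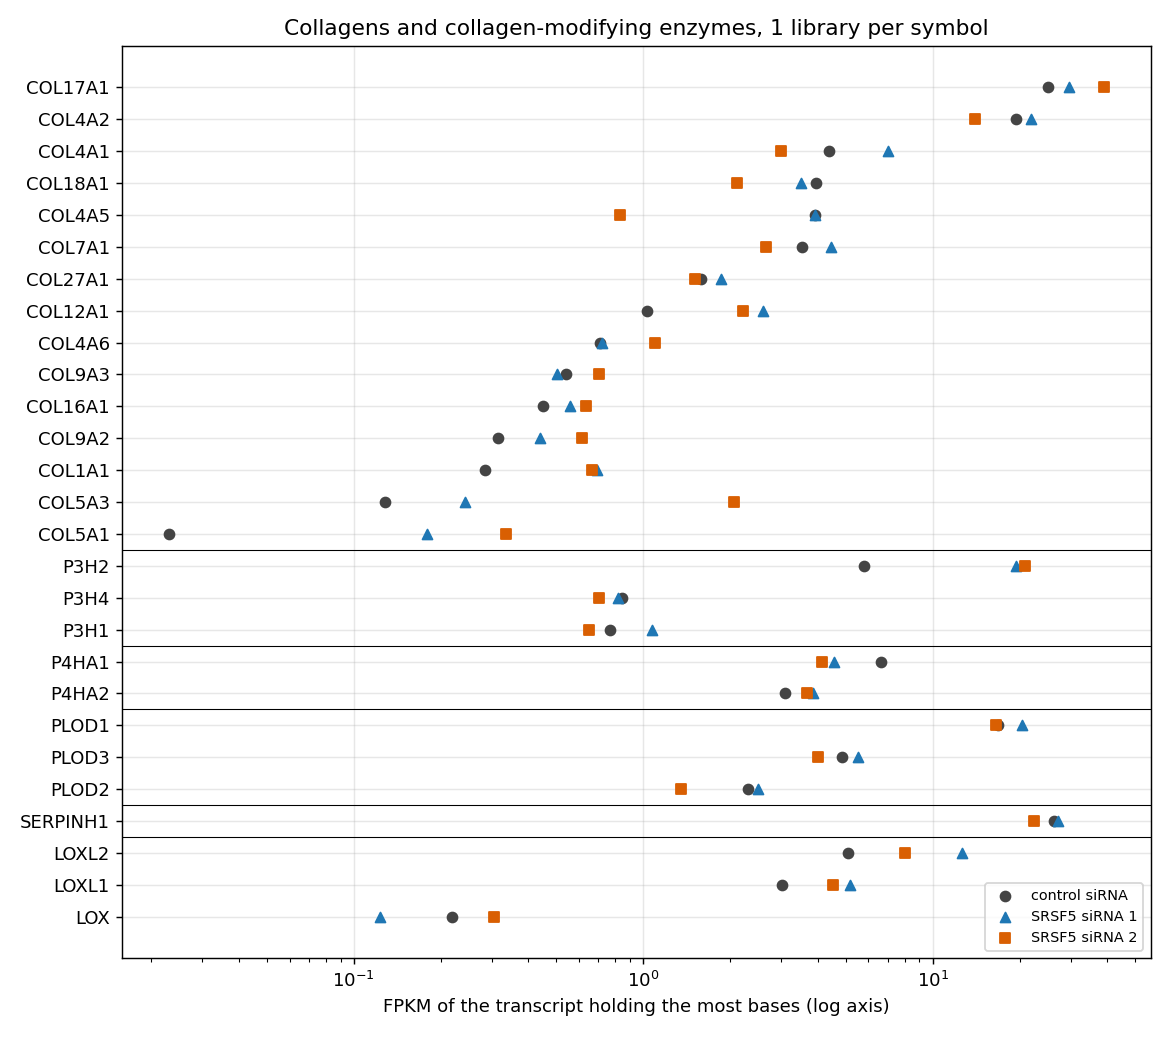
Level of the 27 tested genes, with genes on the vertical axis grouped by role and the FPKM of the main transcript on a logarithmic horizontal axis; each symbol is 1 library, with no error bar. P3H2 moves from 5.80 FPKM in the control to 19.4 and 20.9 with the siRNAs, and COL4A5 separates siRNA 2 (0.832) from the other libraries (3.91 each).

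A gene was called when both siRNA libraries were at least 1.5-fold above, or both at least 1.5-fold below, the control. By that rule 5 of 27 members (18.5%) were higher, against 3.19% of all tested genes, and 0 were lower, against 1.47%. The 5 were the prolyl 3-hydroxylase P3H2, the lysyl oxidase LOXL2 and the chains COL12A1, COL1A1 and COL5A1. Because COL5A1 entered through its siRNA libraries, the count was repeated over genes with at least 1 FPKM in the control itself. There 4 of 25 members (16.0%) were higher, against 2.76% of 13570 genes, and 0 lower, against 1.59%. At 2-fold the count was 2, P3H2 and COL12A1, against 0.733% of all genes higher and 0.280% lower. The same 2 were called when log2 of the main-transcript FPKM plus 1 was used, since the added 1 outweighs low values. Without it, the main transcript of COL1A1 was at 243% and 234% of the control, that of COL5A1 at 780% and 1464% and that of LOXL2 at 249% and 158%. The median log2 ratio of the members was 0.19 and 0.25 with siRNA 1 and 2, and 12 of 27 were above the control with both and 4 below with both, beside 4188 and 4091 of the 13923 genes tested. Both ratios of a gene have the same control library as denominator and are not independent.

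limma with Benjamini-Hochberg adjustment over all 13923 genes called 0 genes (0%) at an adjusted p under 0.05, and 416 (2.99%) at an unadjusted p under 0.05. Among members, 0 passed the adjusted threshold and 4 the unadjusted one, namely P3H2, COL12A1, LOXL2 and COL5A1, the last with the limit just given. The lowest adjusted p of a member was 0.618, for P3H2. The spread in this fit comes only from the difference between the siRNA libraries, and with robust limma 3 genes passed, of which 0 were members.

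**Figure D2:**
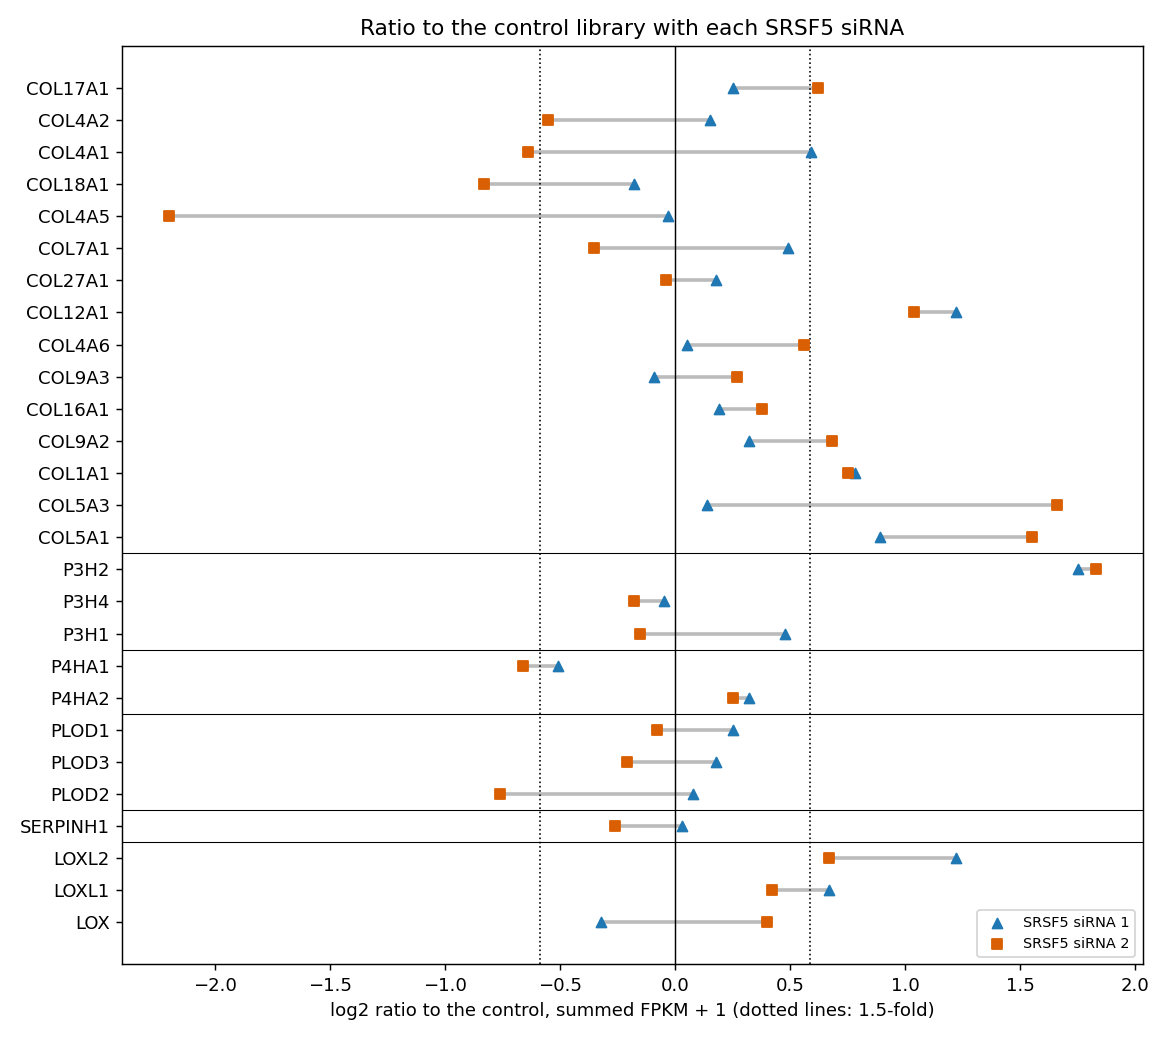
Ratio to the control of the 27 tested genes, as log2 of the summed FPKM plus 1 on the horizontal axis, with a triangle for siRNA 1, a square for siRNA 2 and a grey line joining them; dotted lines mark 1.5-fold. P3H2, COL12A1, LOXL2, COL1A1 and COL5A1 have both symbols right of the upper line, and the long lines of COL4A5 and COL5A3 show where the siRNAs differ.

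Among the chains of the epidermal basement membrane, COL17A1 (chr10:104031286-104085880, minus strand), a transmembrane collagen of hemidesmosomes, had a summed FPKM of 281 in the control against 335 (siRNA 1) and 430 (siRNA 2). Both siRNA libraries were above the control, siRNA 2 more so, at log2 ratios of 0.25 and 0.62 with counting errors of 0.03 and 0.02, and the gene missed the rule because siRNA 1 did not reach 1.5-fold. All 10 of its transcripts lay in narrow bands, that is between 114% and 125% of the control (siRNA 1) and between 139% and 160% (siRNA 2). Since transcripts share reads, this says that the difference ran along the gene and is not separate evidence. The summed keratinocyte markers stood in the same order, with KRT14 at 714, 1040 and 3164 FPKM and KRT5 at 2259, 2558 and 3523. Not every marker did. KRT6A was below the control with both (594, 480 and 470), DSG3 with siRNA 1 (55.2, 41.3 and 150) and SFN with siRNA 2 (402, 447 and 361). Of the 10 markers, KRT16 and KRT17 were called higher with both siRNAs. Their part in the COL17A1 result was not tested.

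Inside COL17A1, COL17A1-208 has 415 bases, in 6 stretches, that are not in COL17A1-201, which is nested in it. It held 168 read equivalents more than COL17A1-201 in the control, against 229 (siRNA 1) and 158 (siRNA 2). This excess was thus lowest in the library where the gene was highest. As reads are shared among transcripts, it does not give the depth of the 415 bases.

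Type IV collagen, the network of basement membranes, is built from chains whose genes lie in head-to-head pairs. COL4A1 and COL4A2, the ubiquitous pair, start on opposite strands of chromosome 13 with 78 bases between the starts of COL4A1-201 and COL4A2-201, and the bases between the starts are shown because both genes read outward from them. The sequence is given on the plus strand, towards COL4A2, at chr13:110307158-110307235 in RefSeq's GRCh38.p14, with matches to CCAAT and GGGCGG in capitals.
COL4A1 to COL4A2 starts: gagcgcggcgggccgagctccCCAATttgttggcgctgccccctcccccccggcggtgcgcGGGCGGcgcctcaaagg

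COL4A1 (chr13:110148963-110307157, minus strand) had 24.9 FPKM in the control against 38.0 (siRNA 1) and 15.6 (siRNA 2). COL4A2 (chr13:110305812-110513209, plus strand) had 214, 237 and 146 FPKM. Both genes of the pair were above the control with siRNA 1 (log2 0.59 and 0.15) and below it with siRNA 2 (-0.64 and -0.55), so the siRNAs differed by 1.23 and 0.70 on the log2 scale, with siRNA 2 lower. By main transcript COL4A2 was 4.42 times COL4A1 in the control against 3.13 times (siRNA 1) and 4.68 times (siRNA 2). For COL4A1, the 14 transcripts with at least 20 read equivalents (reads, added up in shares) in a library ran from 130% to 199% of the control with siRNA 1 and from 52.6% to 70.4% with siRNA 2.

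COL4A5 and COL4A6, on chromosome X, form another such pair with 346 bases between the gene starts, and here the neighbours differed. The 250 bases ahead of the RefSeq start of COL4A5, which lie inside that gap at chrX:108439588-108439837 (plus strand, RefSeq, GRCh38.p14), are printed with CCAAT matches, on either strand, in capitals.
COL4A5 promoter: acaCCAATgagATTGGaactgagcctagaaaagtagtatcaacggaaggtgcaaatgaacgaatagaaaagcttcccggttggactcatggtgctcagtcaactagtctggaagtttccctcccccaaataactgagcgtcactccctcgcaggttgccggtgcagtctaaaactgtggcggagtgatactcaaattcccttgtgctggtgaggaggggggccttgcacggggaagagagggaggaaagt

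COL4A5 (chrX:108439844-108697545, plus strand), the chain affected in X-linked Alport syndrome, had 36.6 FPKM in the control against 35.9 (siRNA 1) and 7.20 (siRNA 2). The control and siRNA 1 were nearly equal and siRNA 2 stood far below, at a log2 ratio of -2.20 with a counting error of 0.11, against -0.03 for siRNA 1. Each of the 12 transcripts was lower with siRNA 2, at 12.2% to 25.7% of the control. COL4A6 (chrX:108155607-108439497, minus strand) had 5.08, 5.29 and 7.99 FPKM, highest with siRNA 2. The main-transcript ratio of COL4A5 to COL4A6 was 5.51 in the control against 5.40 (siRNA 1) and 0.754 (siRNA 2). COL4A3 and COL4A4, the remaining type IV pair, stayed below 1 FPKM, with highest values of 0.0928 and 0.555.

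The motifs were searched on both strands in 35116 RefSeq promoters. CCAAT occurred in 32.0% of all 250-base windows and in 14.3% of windows of 78 bases, and GGGCGG in 42.6% and 27.4%. A match is a description of the letters only.

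COL7A1 (chr3:48564073-48595267, minus strand), the chain of anchoring fibrils, had 17.8 FPKM in the control against 25.5 (siRNA 1) and 13.8 (siRNA 2). It lay above the control with siRNA 1 (log2 0.49) and below with siRNA 2 (-0.35), neither of which reached 1.5-fold, while the siRNAs were 0.84 apart on the log2 scale. COL18A1 (chr21:45405165-45513720, plus strand), a basement membrane proteoglycan core whose C-terminal end is endostatin, had 23.4, 20.6 and 12.8 FPKM. It was below the control in both, at -0.18 and -0.83, and its 7 transcripts ran from 84.2% to 89.7% with siRNA 1 and from 49.2% to 60.1% with siRNA 2. COL18A1-207 held 955, 801 and 470 read equivalents against 495, 421 and 253 for the shorter COL18A1-201, so exons of the longer forms were read in each library. SLC19A1 overlaps COL18A1 on the opposite strand at 6.89, 4.94 and 5.04 FPKM, and its part in the COL18A1 values was not tested.

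**Figure D3:**
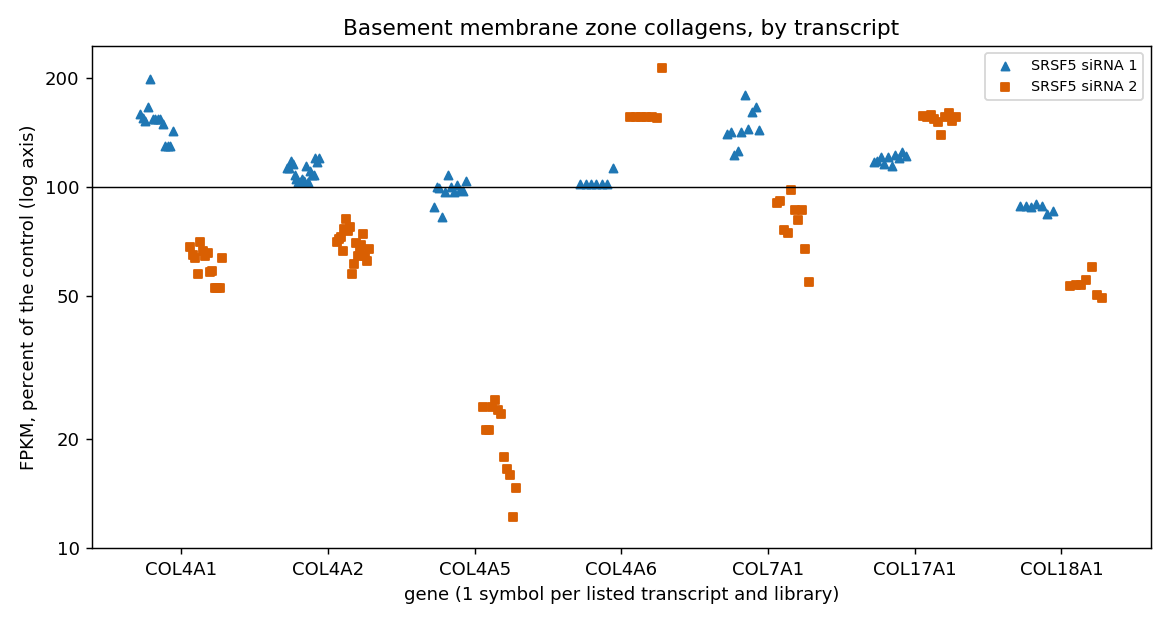
FPKM of each listed transcript of 7 basement membrane zone collagens as a percent of the control on a logarithmic axis, 1 triangle (siRNA 1) or square (siRNA 2) per transcript with at least 20 read equivalents in a library. COL4A1, COL4A2 and COL7A1 lie above 100% with siRNA 1 and below with siRNA 2, COL4A5 is at 12.2% to 25.7% with siRNA 2, and COL17A1 and COL4A6 are above 100% with both.

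Between the siRNA libraries, 7 of 27 members were at least 1.5-fold lower with siRNA 2, against 10.5% of all tested genes, and 3 were at least 1.5-fold higher, against 13.7%. The 7 were COL4A1, COL4A2, COL4A5, COL7A1 and COL18A1 with the enzymes P3H1 and PLOD2, and the 3 were COL5A1, COL5A3 and LOX. By main-transcript FPKM 5 members were apart, namely COL4A1, COL4A2, COL4A5, COL5A3 and LOXL2. Taken singly against the control, siRNA 1 had 7 members higher (6.18% of all genes) and 0 lower (5.47%), and siRNA 2 had 8 higher (13.2%) and 5 lower (10.1%). The 5 lower with siRNA 2 were COL4A1, COL4A5, COL18A1, PLOD2 and P4HA1.

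Partners of these chains in the basement membrane and at the cell surface were read from a list of 22 genes, of which 19 were tested. LAMA3 (81.9, 137 and 152 FPKM) and LAMB3 (257, 401 and 435 FPKM), chains of laminin-332, were at least 1.5-fold higher with both siRNAs, and 0 genes were lower with both. The median log2 ratio of the 19 was 0.36 with siRNA 1 and -0.08 with siRNA 2. The lowest ratio belonged to AGRN (agrin), with 85.6, 87.9 and 19.4 FPKM and log2 ratios of 0.04 and -2.08. HSPG2 (perlecan) had 55.9, 64.2 and 21.8 FPKM, at 0.20 and -1.32. Perlecan and agrin are, with COL18A1, the heparan sulfate proteoglycans of basement membranes, and each of these 3 was below the control with siRNA 2. That was not particular to them, since others of the list, such as ITGA6 and LAMA5, were below it too. Of all tested genes, 10.1% were at least 1.5-fold lower with siRNA 2. HSPG2 was singled out after its values were seen.

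The interstitial chains were at low levels or, as with COL6A2 (0, 0 and 0.0123 FPKM), nearly absent. COL12A1, which decorates fibrils and links them to other matrix, was the most abundant of those called. Its 250 bases ahead of the start (chr6:75206054-75206303, minus strand, RefSeq, GRCh38.p14) are shown because the gene was more than 2-fold higher with both siRNAs, with matches to GGGCGG and GGAATG, on either strand, in capitals.
COL12A1 promoter: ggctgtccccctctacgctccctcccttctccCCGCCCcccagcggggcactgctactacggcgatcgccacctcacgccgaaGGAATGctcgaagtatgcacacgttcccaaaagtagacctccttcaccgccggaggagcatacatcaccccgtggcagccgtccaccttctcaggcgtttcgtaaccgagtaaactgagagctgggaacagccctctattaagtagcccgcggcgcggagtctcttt

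GGAATG, a core bound by TEAD factors, occurs in 11.9% of all such windows, and TGANTCA, the AP-1 core, in 6.57%. The COL12A1 window held 1 match of GGAATG and 0 of TGANTCA.

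COL12A1 (chr6:75084326-75206053, minus strand) had 11.9 FPKM in the control against 28.9 (siRNA 1) and 25.5 (siRNA 2). Both siRNA libraries were well above the control and near each other, at log2 ratios of 1.22 and 1.04 (mean 1.13 ± 0.12, SD, n = 2) with counting errors of 0.07 and 0.08. All 11 transcripts were higher, between 205% and 282% (siRNA 1) and between 149% and 259% (siRNA 2). COL12A1 makes a long and a short form that differ by N-terminal domains. COL12A1-201 held 255, 629 and 483 read equivalents more than COL12A1-202, which is nested in it. The extra sequence of COL12A1-201 includes the first bases of the gene and is not particular to the long form. The balance of the 2 forms was not measured.

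COL1A1 (chr17:50183289-50201632, minus strand), the main chain of type I collagen, had 2.51 FPKM in the control against 5.02 (siRNA 1) and 4.89 (siRNA 2), with 85.1, 196 and 184 read equivalents on its main transcript. Both siRNA libraries were above the control and equal to each other within counting error, at log2 ratios of 0.78 and 0.75 (mean 0.76 ± 0.02, SD, n = 2) with counting errors of 0.19 each. Its partner chain COL1A2, which joins it in the type I heterotrimer, held 2.62, 2.21 and 0.780 read equivalents, with 95% exact Poisson intervals of 0.462 to 8.19, 0.311 to 7.56 and 0.00804 to 5.18. COL1A1 RNA was thus counted without a matching level of COL1A2 in any library. These intervals cover counting error only.

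COL5A1, a chain of type V collagen that nucleates fibrils, had 0.0839, 1.01 and 2.18 FPKM, with 8.67, 64.1 and 117 read equivalents (intervals 3.89 to 16.7, 49.4 to 81.9 and 97.2 to 141). The 3 libraries did not overlap in these counting intervals, and siRNA 2 was the highest. COL5A1, like COL5A3, passed the filter through the siRNA libraries only, so a low control is in part set by the filter. The intervals also leave out any spread between transfections, and are not evidence of a difference. The log2 ratios, with 1 added, were 0.89 and 1.55 (mean 1.22 ± 0.47, SD, n = 2). The counting errors of 0.52 and 0.51 are for reads with nothing added and cannot be set against these ratios. COL5A3 had 0.142, 0.256 and 2.61 FPKM, with 35.5, 63.5 and 527 read equivalents, which is 1.81 times the control with siRNA 1 and 18.4 times with siRNA 2 in summed FPKM. On the log2 scale with 1 added the ratios were 0.14 and 1.66, so siRNA 1 did not pass the rule at this low level. COL5A2, the other common chain of type V, was below 1 FPKM in each library, with 15.5, 40.3 and 35.3 read equivalents.

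Other fibroblast chains were few in reads. COL3A1 held 3.83, 15.7 and 37.0 read equivalents (intervals 1.00 to 9.99, 8.90 to 25.6 and 26.1 to 51.0), lowest in the control. COL6A1 held 11.1, 19.3 and 52.1, whereas COL6A2 and COL6A3, needed with it for type VI collagen, had at most 0.200 and 0.800 in any library. The summed fibroblast markers, although near 0, were also highest with siRNA 2 (0.557, 0.927 and 2.34 FPKM), mostly through FBN1 (0.383, 0.640 and 1.56) and DCN (0.0490, 0.0747 and 0.589). PDGFRB (0.0670, 0.0624 and 0.0541) and FAP (0.0588, 0.0147 and 0) were lowest there, and the remaining 5 were at or below 0.122 FPKM in each library. Their part in the COL3A1, COL5A1, COL5A3 and COL6A1 values was not tested.

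**Figure D4:**
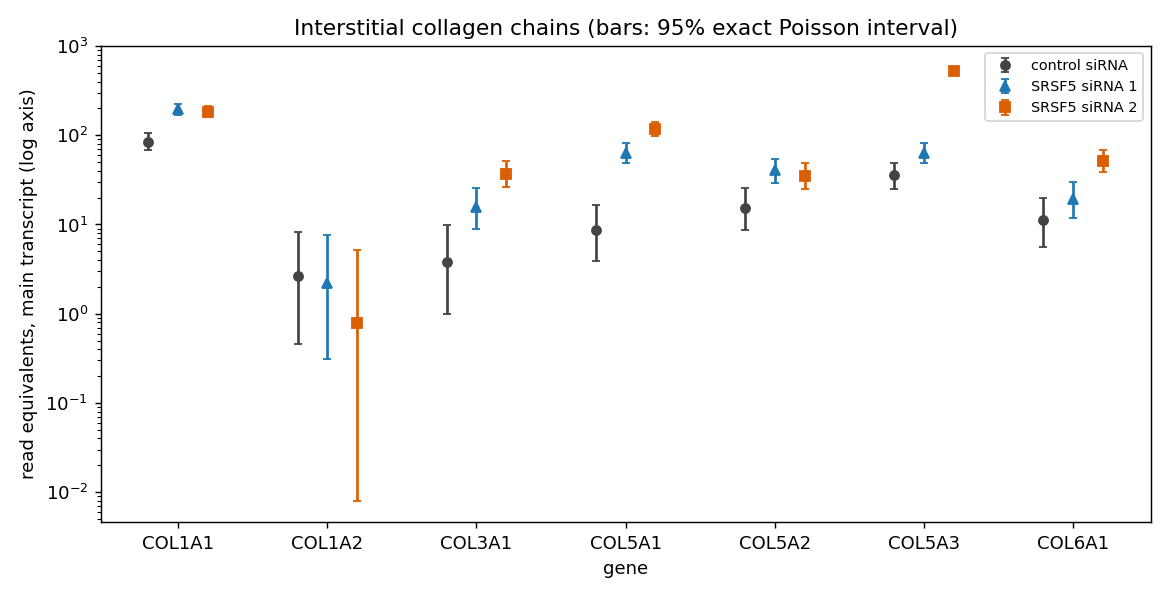
Read equivalents of the main transcript of 7 interstitial collagen chains on a logarithmic axis, 1 symbol per library with its 95% exact Poisson interval (counting error only). COL1A1 is at 85.1, 196 and 184, COL1A2 at 2.62 or below, and COL5A3 reaches 527 with siRNA 2 only.

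Of the remaining tested chains, none was called. COL27A1 had 9.70, 11.1 and 9.43 FPKM, COL16A1 7.26, 8.43 and 9.75, and COL9A2 2.13, 2.91 and 4.02. COL9A3 had 5.60, 5.18 and 6.99 FPKM, but most of its signal was at the end of the gene. COL9A3-206, which holds the last exons, had 60.0, 52.9 and 69.3 read equivalents, against 60.4, 53.0 and 72.2 for the longer main transcript COL9A3-214. TCFL5 overlaps COL9A3 on the opposite strand at 10.4, 10.8 and 7.60 FPKM, and whether its reads entered these exons was not tested. The COL9A3 values describe mainly these last exons.

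The prolyl 3-hydroxylases include the member with the largest mean ratio among the 5 called, on the scale log2(sum + 1). With a pseudocount of 0.1, the low COL5A1 was above it, at 3.11 against 1.81. P3H2, which adds 3-hydroxyproline and acts on type IV collagen among others, is shown with the 250 bases ahead of the start of P3H2-201 (chr3:190120898-190121147, minus strand, RefSeq, GRCh38.p14), the only match in capitals being GGGCGG on the opposite strand.
P3H2 promoter: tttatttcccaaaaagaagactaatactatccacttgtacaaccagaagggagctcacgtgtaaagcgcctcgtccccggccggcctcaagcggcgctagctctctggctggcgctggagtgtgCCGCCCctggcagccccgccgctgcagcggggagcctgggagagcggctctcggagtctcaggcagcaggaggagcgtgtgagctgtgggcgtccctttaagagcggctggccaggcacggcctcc

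P3H2 (chr3:189956728-190122437, minus strand) had a summed FPKM of 43.3 in the control against 148 (siRNA 1) and 156 (siRNA 2). The siRNA libraries were close together and far above the control, at log2 ratios of 1.75 and 1.83 (mean 1.79 ± 0.05, SD, n = 2) with counting errors of 0.06 and 0.05. On the main transcript this was 900, 2849 and 3006 read equivalents. All 10 transcripts were higher, between 330% and 357% of the control (siRNA 1) and between 349% and 377% (siRNA 2), including the 6 annotated as retained introns. Since transcripts share reads, these percents are not separate evidence, and the coverage of the introns themselves was not measured.

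The other members of the family were not called. P3H1, which forms a complex with CRTAP and PPIB that modifies fibrillar chains, had 10.2, 14.6 and 9.13 FPKM, above the control with siRNA 1 (0.48) and slightly below with siRNA 2 (-0.15). P3H4, a family member that works with a lysyl hydroxylase complex, had 7.82, 7.54 and 6.78 FPKM. P3H3 stayed below 1 FPKM, at most 0.192.

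Prolyl 4-hydroxylase is a tetramer of alpha subunits with protein disulfide isomerase. Its alpha subunit P4HA1 had 40.5, 28.1 and 25.3 FPKM, below the control with both siRNAs at log2 ratios of -0.51 and -0.66, of which the first did not reach 1.5-fold. All 6 transcripts lay between 68.6% and 72.8% (siRNA 1) and between 62.0% and 64.7% (siRNA 2). P4HA2 went the other way with 52.1, 65.3 and 62.1 FPKM (0.32 and 0.25), and P4HA3 was not expressed.

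The lysyl hydroxylases were all expressed and none was called. PLOD1, which acts on helical lysines, had 123, 147 and 116 FPKM, and PLOD3, which also transfers glucose to galactosylated hydroxylysine, had 60.4, 68.4 and 52.0. PLOD2, which hydroxylates telopeptide lysines, had 23.9, 25.4 and 13.8 FPKM, near the control with siRNA 1 (0.08, error 0.10) and lower with siRNA 2 (-0.76, error 0.12).

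PLOD2 is known for a splice choice at a short exon, whose inclusion gives the long form of the enzyme. This 63-base exon lies at chr3:146077862-146077924 (GRCh38, minus strand), exon 14 of 20 in GENCODE 29's PLOD2-201, and is printed from that transcript, all in lower case, because SRSF5 is a splicing factor and the exon is the alternative part.
PLOD2 63-base exon: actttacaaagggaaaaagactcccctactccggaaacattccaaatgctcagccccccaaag

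PLOD2-201, which holds the exon, had 0.250, 0.250 and 0 read equivalents more than PLOD2-202, which lacks it. A read that also touches a neighbouring exon would count for both forms. The use of this exon therefore cannot be told from these values. Across all members, 68 pairs had one transcript nested in the other and at least 20 read equivalents on the longer only, in at least 1 library. In 3 of them the ratio of these to the shorter transcript was shifted at least 1.5-fold with both siRNAs. All 3 were in COL3A1 and COL5A1, where the control had few reads. With 20 read equivalents required in every library, 63 pairs were left and 0 were shifted with both.

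SERPINH1 (HSP47), the chaperone that binds the folded helix, had 610, 622 and 508 FPKM. It was near the control with siRNA 1 (log2 0.03, error 0.03) and somewhat lower with siRNA 2 (-0.26, error 0.03), well short of 1.5-fold. Partners in procollagen folding, processing and export were read from a list of 31 genes, of which 19 were tested, 0 were higher and 0 lower with both siRNAs, and the median log2 ratios were 0.07 and -0.01. The highest ratio of the tested list in a single library was that of KDELR3 with siRNA 2, a receptor that returns proteins to the endoplasmic reticulum, with 1.56, 1.70 and 7.30 FPKM, and the lowest that of the prolyl isomerase FKBP14 with 14.8, 9.78 and 6.85 FPKM.

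The lysyl oxidases oxidize lysines to start crosslinks. LOXL2, which also acts on type IV collagen, had 19.0 FPKM in the control against 45.5 (siRNA 1) and 30.7 (siRNA 2). Both siRNA libraries were above the control, siRNA 1 more so, at log2 ratios of 1.22 and 0.67 (mean 0.94 ± 0.39, SD, n = 2) with counting errors of 0.06 and 0.07. The 14 transcripts with enough reads were between 203% and 264% (siRNA 1) and between 132% and 184% (siRNA 2). LOXL2 shares exon bases with transcripts of ENTPD4 on the same strand, whose level was 27.8, 28.9 and 19.8 FPKM. LOXL1, known for elastic fibres, had 13.5, 22.0 and 18.4 FPKM, above the control with both (0.67 and 0.42) but past 1.5-fold with siRNA 1 only. LOX itself was low, at 1.05, 0.645 and 1.72 FPKM with 49.6, 26.4 and 63.6 read equivalents, below the control with siRNA 1 and above it with siRNA 2 (-0.32 and 0.40). SRFBP1 overlaps LOX on the opposite strand at 12.1, 11.8 and 12.1 FPKM, and its part in the LOX values was not tested. LOXL3 and LOXL4 were not expressed.

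Collagen-cleaving enzymes were read from a list of 12, of which 8 were tested. By the 1.5-fold rule 3 were higher with both siRNAs and 0 lower, against 3.19% and 1.47% of all tested genes. They were MMP1 (0.694, 2.02 and 6.09 FPKM), MMP10 (0.827, 2.85 and 9.16 FPKM) and MMP13 (7.30, 25.6 and 33.4 FPKM). MMP1 and MMP10 were below 1 FPKM in the control and passed the filter through the siRNA libraries only. Their differences from the control, and the list medians of 0.62 and 0.86, are thus in part set by the filter. MMP1 and MMP13 are collagenases and MMP10 is a stromelysin. MMP14, the membrane-bound collagenase, gave the lowest ratio of the list with 224, 274 and 170 FPKM (0.29 and -0.40). Of 14 collagen receptors, 13 were found and 7 were tested, and 0 were called in either direction, with medians of -0.31 and 0.11. The highest ratio in a single library was that of the collagen-binding integrin chain ITGA2 with siRNA 2 (75.9, 58.7 and 117 FPKM, log2 -0.37 and 0.62). CD44 was the highest with siRNA 1 (0.32, and 0.30 with siRNA 2). The lowest ratio was that of the syndecan SDC1 with siRNA 2 (186, 149 and 100 FPKM, log2 -0.31 and -0.89).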

How the data were processed

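The 3 HaCaT libraries came from a SMARTer mRNA-Seq kit, per the labels' protocols. Per the file headers, the authors deposited 1 FPKM value for each transcript. Of the builds GRCm38, mm10 and GRCh38.p12, listed in the submitters' processing notes, the role is not stated there, and the aligner is not given in the sources used here. Exons of 514 of 547 member transcripts (94.0%) were identical to GENCODE 29, so coordinates are GRCh38.

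Multiplied by transcript length, 100% of the values were whole multiples of a unit of their library (tolerance 0.05). A read equivalent is 100 units. Low values lay at simple fractions of it, such as 0.330 (COL6A6, siRNA 2), 0.200 (COL10A1, control) and 0.170 (COL28A1, control). LOXL4, with 1 listed transcript, had whole numbers (5.00, 2.00 and 6.00). A read thus appears to be divided equally among the transcripts it overlaps, although the counting rule is not given. Transcripts on other scaffolds (20343 of 247012) were left out. FPKM was summed per gene and ratios taken as log2(sum + 1) over 13923 genes with a mean of at least 1. The main rule, with no p-value, called genes whose siRNA libraries were both 1.5-fold or more above, or both below, the control. limma 3.58.1 in R 4.3.3 was fitted with a trend over all tested genes. A check on simulated data covered its log2 ratios for planted changes and the fold rule. How often limma itself calls a planted change is not reported here. The limma fit had 1 residual degree of freedom, from the difference between the siRNAs, and the lone control was assumed to vary like them. Nothing says that a transfection was repeated, so p-values rest on the spread between these samples alone, which may be technical. Counting errors and exact Poisson intervals treat the read equivalents of the main transcript as whole reads and cover counting only. Where reads are divided among transcripts, the gene holds more reads than its main transcript. The errors are then not those of the gene and may be too large for it.

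Coverage of exons was bounded by linear programming (scipy 1.17.1 in Python 3.11.15), under the assumption that each value sums all bases on its transcript. The fractions above go against this assumption, so the bounds are not reported. These bounds, a filter on the control level, the promoters and the motifs were chosen after seeing the data. RefSeq promoters were found for 45 of 60 members. Members and lists were chosen with earlier results of these data known. Named were all expressed members, with values for those tested, and from each list the genes called in both and the highest and lowest ratio. Alternatives were the pseudocount, the gene level, the filter, the scaling, the fold threshold and leaving out each siRNA library.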

Additional observations from a re-analysis of the deposited data

How the results depend on the processing

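The 5 members higher with both siRNAs stayed the same 5 with a pseudocount of 0.1, with no filter, with a filter on any library, with median ratio scaling and without mitochondrial transcripts. With the mean FPKM over transcripts, with the FPKM of the main transcript and with a threshold of 2-fold, 2 were left in each case, P3H2 and COL12A1. The pseudocount of 1 weighs more on a mean or a single transcript than on a sum. With 1 siRNA library left out the count ran from 7 to 13. Without SRSF5 siRNA replicate 1 it was 13 (8 higher, 5 lower), and without replicate 2 it was 7, so the lower calls rest on siRNA 2. The 10 members apart between the siRNAs became 4 with the mean FPKM, 5 with the main transcript and 3 at 2-fold, 8 with a filter of at least 1 FPKM in the control, and 11 in the remaining settings. That control filter, chosen after seeing the data, left 4 of the 5 higher members, all but COL5A1. limma called 0 genes in the main setting and 3 with robust fitting, and 0 under the other settings. Shifted nested pairs fell from 3 to 0 when every library had to hold 20 read equivalents. The mean log2 ratios of the 5 called members kept their sign in every setting run. Of all 27 tested members, 11 took the other sign in at least 1 setting, mostly when 1 siRNA library was left out, among them COL4A1 (-0.02, and 0.59 without siRNA 2), COL7A1 (0.07, and -0.35 without siRNA 1) and LOX (0.04, and -0.32 without siRNA 2). No paired analysis was possible because there is a single control library, so the groups share fewer than 2 replicate numbers. Depth limits low chains such as COL5A1, COL1A2 and COL3A1, with few reads in the control.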
